A study of Mus musculus with 2 samples.

Results

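The genes described here are 9 core components of DNA methylation and its removal in the mouse, namely Dnmt1, Dnmt3a, Dnmt3b, Dnmt3l, Tet1, Tet2, Tet3, Uhrf1 and Tdg. They were taken by name from a total of 21755 protein-coding genes on the chromosomes that carried peaks, by a rule that used no peak counts, although earlier results of these data were known when the set was chosen. Nanog is a homeodomain transcription factor of pluripotent cells, and its binding was mapped by chromatin immunoprecipitation and sequencing (ChIP-seq) with a rabbit monoclonal antibody in the embryonic stem cell (ESC) line Bruce-4 of the mouse. The cells were untreated, with no genetic change named in the labels, and grew in medium containing fetal bovine serum and leukemia inhibitory factor. There was 1 immunoprecipitated sample and 1 input sample, without replicates, and only the peak list of the former was analysed here. That list gave positions and no peak height or read depth, so each peak below counts as present or absent, and a site without a peak may hold binding that was not detectable at the depth of the library.

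In mammals, methyl groups sit mostly on the cytosine of CG dinucleotides (CpG). Dnmt1 copies the pattern onto the new strand after replication, and Uhrf1 recognises half-methylated CpG sites and brings Dnmt1 to them. Dnmt3a and Dnmt3b set new methylation, and Dnmt3l, which has no catalytic activity of its own, stimulates both. The Tet enzymes oxidise the methylated base, and Tdg, a DNA glycosylase, cuts out the oxidised products so that base excision repair can restore plain cytosine. Mouse ESCs are known for high Tet1 and Tet2, for a short Dnmt3a form that starts inside the gene, and for changes in genome methylation with the culture medium. Expression and methylation were not measured in these data.

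Within 100 kb of the transcription start sites (TSSs) of the 9 genes, 15 distinct Nanog peaks were listed. The TSS was the 5′ end of the annotated gene, and distance ran from the middle base of the peak. Dnmt3a and Dnmt3b each had 3 peaks, Tet1, Tet2, Tet3 and Uhrf1 each had 2, Dnmt3l had 1, and Dnmt1 and Tdg had 0. None of the 9 genes had a peak within 5 kb of its TSS, where 6.25% of protein-coding genes had one. Inside the genes lay a pair at an internal start of Tet1, 1 in the first intron of Tet2, 1 in an intron of Tet3 and 1 ahead of the internal start of Dnmt3a. The peaks closest to the outside of a gene were 1 upstream of Dnmt3b and 1 past the end of Uhrf1, the latter at the start of the neighbouring gene Kdm4b.

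The bases of 5 peaks, 4 inside a gene and the one upstream of Dnmt3b, are printed here because the counts below turn on them. Each is the plus strand of GRCm38 (mm10), 5′ to 3′, and shows the central 300 bases of the peak. Capitals mark copies of 5 motifs of ESC transcription factors searched on both strands without mismatch. These were Sox (CCATTGT or CCTTTGT), the Oct octamer (ATGCAAAT), the Nanog core (CCATTA), Klf (GCCACACCC, GCCACGCCC, GCCCCACCC or GCCCCGCCC) and Esrrb (TCAAGGTCA). A sixth, the Oct4-Sox2 composite, was searched with up to 2 mismatches and can overlap the Sox motif and the octamer. The Tet genes come first, with the wider of the Tet1 peaks, then Dnmt3a and Dnmt3b.
Tet1, chr10:62896831-62897130: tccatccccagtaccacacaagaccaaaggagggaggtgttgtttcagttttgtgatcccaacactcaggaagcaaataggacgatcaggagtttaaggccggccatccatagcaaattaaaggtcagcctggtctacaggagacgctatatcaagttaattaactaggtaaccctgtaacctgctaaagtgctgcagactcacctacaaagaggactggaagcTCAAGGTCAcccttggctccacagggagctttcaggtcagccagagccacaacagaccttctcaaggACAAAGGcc
Tet2, chr3:133524727-133525026: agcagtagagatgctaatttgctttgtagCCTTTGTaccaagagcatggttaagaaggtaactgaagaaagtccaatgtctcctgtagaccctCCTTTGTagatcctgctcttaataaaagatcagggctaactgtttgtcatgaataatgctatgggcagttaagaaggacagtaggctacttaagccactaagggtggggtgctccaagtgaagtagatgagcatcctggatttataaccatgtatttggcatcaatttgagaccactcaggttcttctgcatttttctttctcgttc
Tet3, chr6:83421831-83422130: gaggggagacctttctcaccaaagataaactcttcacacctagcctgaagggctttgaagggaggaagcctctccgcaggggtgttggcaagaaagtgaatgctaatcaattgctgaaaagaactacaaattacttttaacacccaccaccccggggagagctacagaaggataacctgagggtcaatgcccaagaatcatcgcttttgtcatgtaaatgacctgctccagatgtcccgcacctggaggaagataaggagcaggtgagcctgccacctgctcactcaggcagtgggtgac
Dnmt3a, chr12:3889984-3890283: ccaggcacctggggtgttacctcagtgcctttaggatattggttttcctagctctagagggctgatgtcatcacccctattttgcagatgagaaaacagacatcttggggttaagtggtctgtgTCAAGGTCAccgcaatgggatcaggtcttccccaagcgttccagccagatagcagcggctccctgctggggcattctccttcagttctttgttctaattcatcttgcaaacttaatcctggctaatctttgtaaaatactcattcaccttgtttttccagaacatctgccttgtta
Dnmt3b, chr2:153642961-153643260: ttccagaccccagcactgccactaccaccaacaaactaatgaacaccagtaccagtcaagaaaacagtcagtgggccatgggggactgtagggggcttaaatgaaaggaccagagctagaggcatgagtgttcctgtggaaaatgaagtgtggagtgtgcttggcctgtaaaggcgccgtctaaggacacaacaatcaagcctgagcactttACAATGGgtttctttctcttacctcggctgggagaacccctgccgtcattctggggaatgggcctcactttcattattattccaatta

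In these windows the wider Tet1 peak held 1 Esrrb copy and 1 Sox copy, Tet2 held 2 Sox copies, Dnmt3a held 1 Esrrb copy and Dnmt3b held 1 Sox copy. The Tet3 window held no copy of any of the 6 motifs, which says only that these letters do not occur in it.

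**Figure D1:**
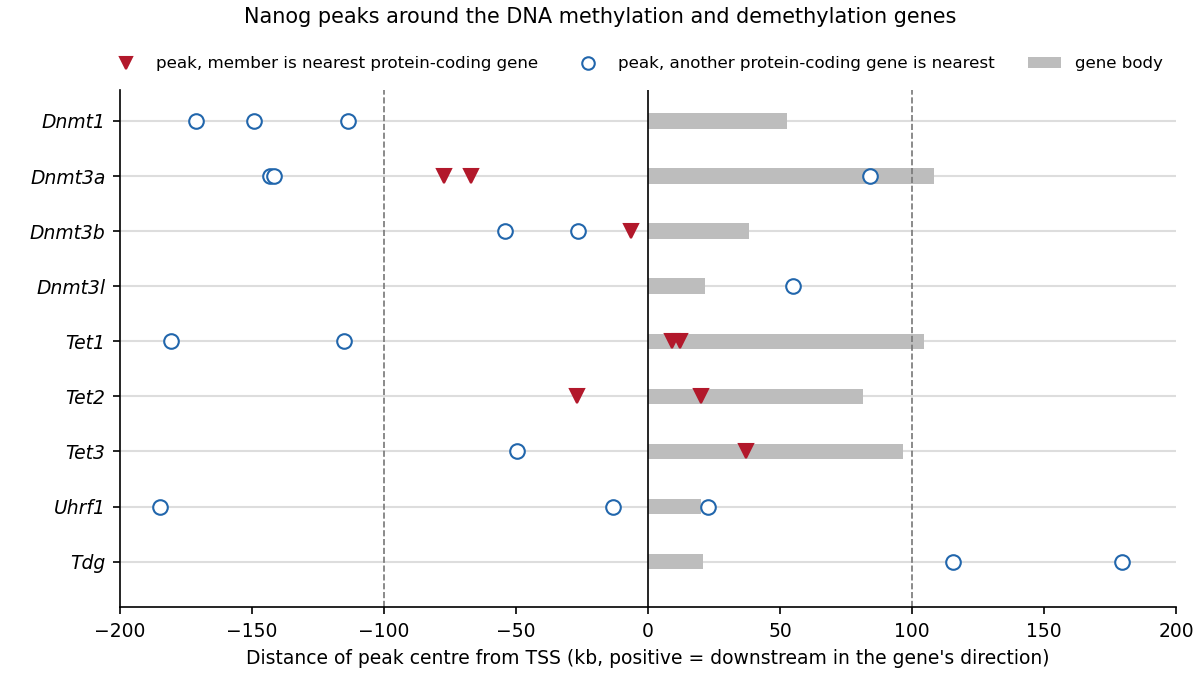
Nanog peaks within 200 kb of the TSS of each of the 9 genes. The horizontal axis is the distance of the peak centre from the TSS in kb, positive in the direction of transcription. Filled triangles are peaks for which the gene is the nearest protein-coding gene and open circles are peaks for which another is, grey bars are gene bodies and dashed lines mark 100 kb. The 4 triangles on gene bodies all belong to Tet genes, and the circle on the Dnmt3a body is the peak 84.1 kb after its TSS.

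The maintenance pair differed in what lay near them. Dnmt1 (chr9:20907209-20959888, minus strand) had no peak within 100 kb, and its closest peak, 113.6 kb upstream, was centred 164 bp from the TSS of Fdx1l. The Dnmt1 TSS is the start of Dnmt1-202, which encodes 1501 residues. From the start of Dnmt1-201, which encodes 1620 residues, this peak was 120471 bp away. Of the other 2 peaks within 200 kb, 1 was 29 bp from the TSS of Tyk2, a Janus kinase, and 1 was 17.3 kb from that of Raver1. The neighbourhood of Dnmt1 was the most crowded of the set, with 9 other protein-coding TSSs within 100 kb. Uhrf1 (chr17:56303321-56323486, plus strand) had 2 peaks, and both were nearest to other genes. The upstream peak, at 13.3 kb, lay in an intron of Plin3, a coat protein of lipid droplets, 2.85 kb from the Plin3 TSS. The downstream peak, at 22.6 kb, was centred 166 bp from the TSS of Kdm4b, a histone demethylase. This Kdm4b peak was the richest in GC of the 15, at 67.0%, and held 35 CpGs and 2 Klf motif copies. Neither maintenance gene was the nearest protein-coding gene of any peak.

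Dnmt3a (chr12:3806007-3914443, plus strand) is the longest gene of the set at 108.4 kb, with no other protein-coding TSS within 100 kb. A pair of its peaks lay upstream, at 67.1 and 77.2 kb, both within introns of Dtnb, the gene of dystrobrevin beta, and both nearest to Dnmt3a among protein-coding genes. These 2 peaks were within 12.5 kb of each other. The nearer, 482 bp wide, held 1 Sox copy and 1 Nanog core copy, and the farther, 253 bp wide, held no motif copy. The third peak of Dnmt3a lay 84.1 kb after the TSS, inside the gene, in intron 6 of the 23-exon transcript Dnmt3a-218. By TSS distance its nearest protein-coding gene was Pomc, the hormone precursor pro-opiomelanocortin, at 64.8 kb.

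The intragenic Dnmt3a peak was close to another start of the same gene. The transcripts Dnmt3a-205 and Dnmt3a-203 begin 85.7 kb after the gene's TSS and encode 689 residues, against 908 residues for Dnmt3a-201 and Dnmt3a-218, which begin 1.02 and 1.15 kb after it. The peak centre lay 1594 bp upstream of the start of Dnmt3a-205 and 1610 bp upstream of that of Dnmt3a-203. At 768 bp the peak ranked 46th in width among the 8735 peaks on chromosomes 1 to 19 and X. It was also 1 of 122 intervals that the list gave on more than 1 line, or 1.40% of intervals, and was counted once. Its Esrrb copy was centred 22 bp from the middle of the peak. Measured from the gene's TSS, this was the most distant of the 15 peaks.

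Dnmt3b (chr2:153649450-153687730, plus strand) had its 3 peaks upstream, at 6.34, 26.6 and 54.2 kb. The closest, 399 bp wide and intergenic, was the nearest of the 15 peaks to any member's TSS, and Dnmt3b was its nearest gene among protein-coding genes and among all annotated genes. Its Sox copy was centred 65 bp from the peak middle. The other 2 belonged by distance to Commd7. The peak at 26.6 kb was centred in a coding exon of Commd7, 9.96 kb from its TSS, and the peak at 54.2 kb was intergenic. Dnmt3l (chr10:78041947-78063622, plus strand) had 1 peak 54.9 kb downstream of its TSS, beyond the end of the gene, nearest to Icosl, a ligand of T-cell costimulation, at 27.6 kb. That peak was 243 bp wide, contained no CpG and held the only octamer copy among the 15.

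Tet1 (chr10:62804570-62908996, minus strand) had a pair of peaks inside the gene, 9.13 and 12.0 kb after the TSS. The annotated TSS of the gene is that of Tet1-208, which is outside the basic set of GENCODE. The annotated coding sequence of Tet1-208 has 142 bases, not a whole number of codons, so a protein length cannot be read from it. The transcript for the long protein of 2039 residues, Tet1-206, begins 9.88 kb after the gene's TSS, at position 62899118. The peaks flanked that start, 1 centred 750 bp upstream of it and the other 2137 bp downstream in its first intron. Another transcript, Tet1-201, with 2007 residues, begins 29.0 kb after the gene's TSS and had no peak within 5 kb. The peak upstream of the Tet1-206 start was 237 bp wide, close to the smallest width in the list, 235 bp, and 90.7% of its bases were masked as repeats. The peak in the intron was 442 bp wide. Both were nearest to Tet1 among protein-coding genes. Beyond the 100 kb limit, the next peak of Tet1, 115.0 kb upstream, was centred 182 bp from the TSS of Hnrnph3.

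**Figure D2:**
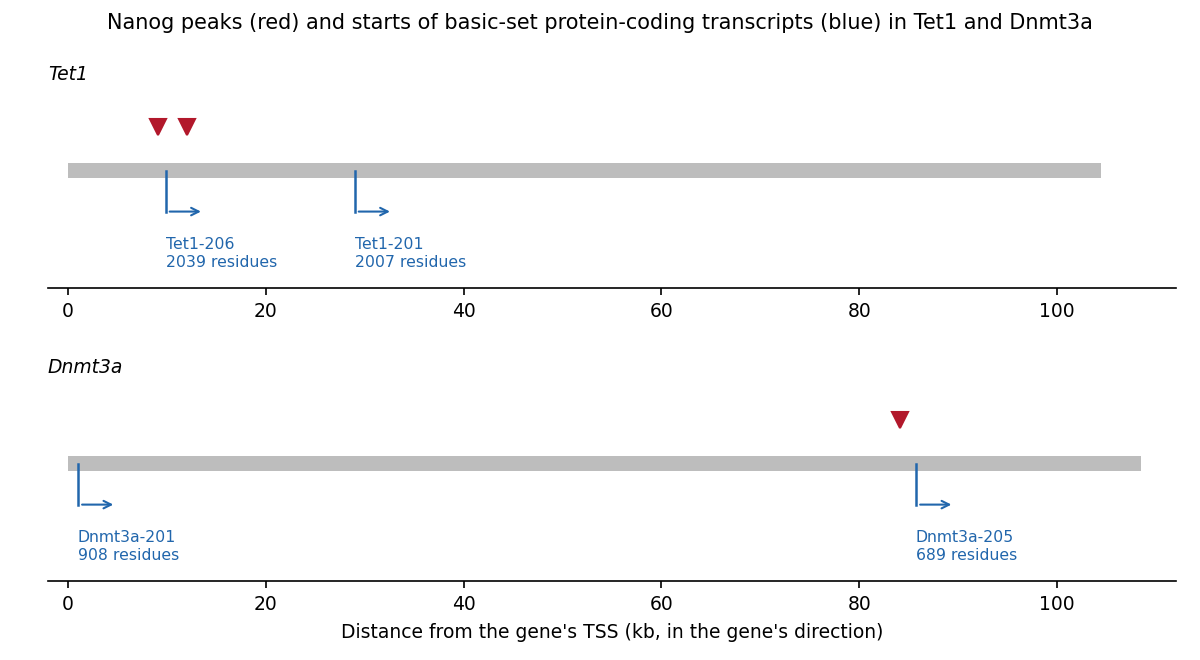
Nanog peaks inside Tet1 and Dnmt3a against the starts of their protein-coding transcripts. The horizontal axes give the distance from the gene's TSS in kb in the direction of transcription, grey bars are gene bodies, triangles are peak centres, and arrows are transcript starts, 1 for each protein length in the basic set of GENCODE. The Tet1 peaks sit on both sides of the Tet1-206 start at 9.88 kb, and the Dnmt3a peak sits just before the Dnmt3a-205 start at 85.7 kb.

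With the start of every annotated protein-coding transcript in place of the gene's TSS, 2 of the 9 genes, Dnmt3a and Tet1, had a peak within 5 kb, and 7.64% of all protein-coding genes did. This measure was added after the peaks had been seen. Dnmt3a has 18 annotated transcripts, which gives it more starts near which a peak can fall.

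Tet2 (chr3:133463679-133545139, minus strand) had the widest peak near any of the 9 genes. It lay 20.3 kb after the TSS in intron 1 of Tet2-204, was 872 bp wide and ranked 15th of the 8735. Its 2 Sox copies were centred 54 and 118 bp from the middle. The second Tet2 peak lay 27.0 kb upstream, 396 bp wide, in an intron of Gm42567, a gene annotated as antisense, and held no motif copy. Both were nearest to Tet2 among protein-coding genes, but no other protein-coding TSS lies within 100 kb of Tet2, and the stretch of genome to which it is nearest spans 463.2 kb, against a median of 47.1 kb over all protein-coding genes. Tet3 (chr6:83362373-83459084, minus strand) had 1 peak 37.1 kb after its TSS, in intron 3 of Tet3-203, 448 bp wide. That TSS is the start of Tet3-204, which is outside the basic set. The peak lay 34411 bp after the start of Tet3-203 (1803 residues) and 19694 bp after that of Tet3-202 (1668 residues). The other Tet3 peak, 49.6 kb upstream, was 1.69 kb from the TSS of Dguok, a mitochondrial deoxyguanosine kinase. It had the smallest width in the list, shared by 778 peaks, with 80.4% of its bases masked, and it held 1 Nanog core copy.

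Tdg (chr10:82629828-82650799, plus strand) had no peak within 100 kb. Its closest peak lay 115.7 kb downstream and was nearest to Nfyb, a subunit of the CCAAT-binding factor NF-Y, at 18.6 kb. The limit of 100 kb therefore fell between the intragenic Dnmt3a peak at 84.1 kb and the peaks at 113.6 kb from Dnmt1, 115.0 kb from Tet1 and 115.7 kb from Tdg.

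Against the background, 7 of the 9 genes (77.8%, exact 95% Clopper-Pearson interval 40.0 to 97.2%) had at least 1 peak within 100 kb, and 54.8% of protein-coding genes did. The background lies inside that interval, which covers counting error only and treats genes as independent. At least 2 peaks were found for 6 of the 9, against 26.3% of protein-coding genes, and at least 3 for 2 of the 9, against 11.4%. Within 50 kb, 5 of the 9 had a peak, against 35.2%. The mean was 1.67 peaks per gene for the 9 and 1.00 for all protein-coding genes, and the closest peak lay at a median of 37.1 kb and 85.3 kb, respectively. The 9 genes had at most 3 peaks, and the maximum over all genes was 10.

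**Figure D3:**
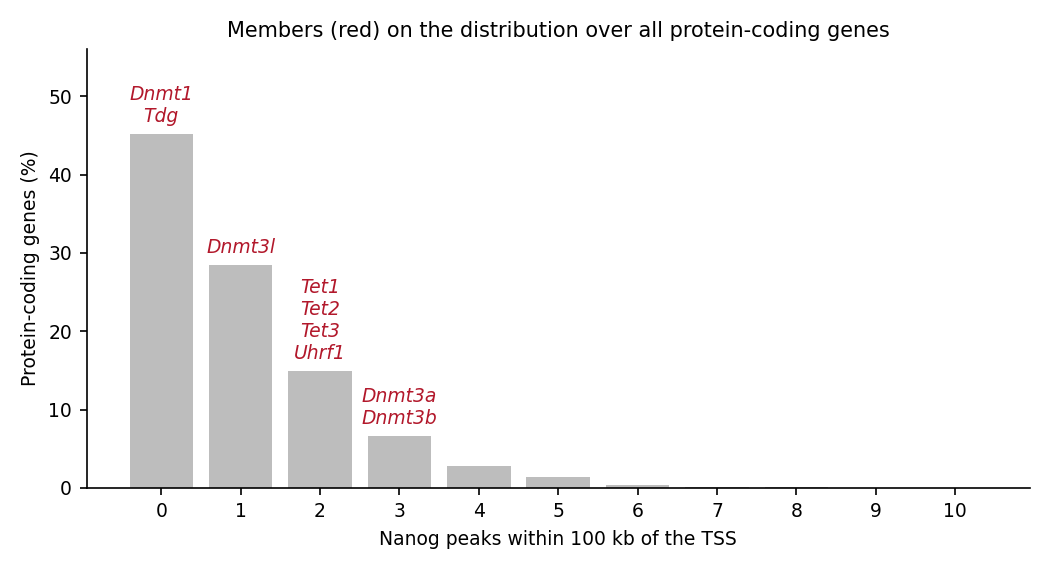
Number of Nanog peaks within 100 kb of the TSS for all 21755 protein-coding genes (bars, percent of genes), with the 9 genes named above the bar they belong to. Dnmt1 and Tdg sit on the bar at 0, and Dnmt3a and Dnmt3b on the bar at 3.

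By the nearest-gene count, 8 of the 15 peaks belonged to their member, 2 each for Dnmt3a, Tet1 and Tet2 and 1 each for Dnmt3b and Tet3. The other 7 were nearest to Pomc, Commd7, Icosl, Dguok, Plin3 and Kdm4b, Commd7 with 2. At least 1 peak was thus nearest to 5 of the 9 genes, against 24.6% of protein-coding genes, and at least 2 peaks to 3 of the 9, against 8.66%. The stretch of genome nearest to each gene sets the room for such peaks and differed widely. It spanned 463.2 kb for Tet2, 191.3 kb for Dnmt3a, 78.9 kb for Tet3, 64.2 kb for Tet1 and 31.9 kb for Dnmt3b, which had nearest peaks, and 39.1 kb for Dnmt1, 33.7 kb for Tdg, 16.8 kb for Dnmt3l and 12.9 kb for Uhrf1, which had none. Tet1 and Tet2 both had 2 nearest peaks, and Dnmt3b had 1 where Dnmt1 and Tdg had 0. Whether the counts depend on the stretch was not tested. With noncoding genes included, only the Dnmt3b peak at 6.34 kb kept its member as the nearest gene. The Tet2 intron peak, for example, was 20220 bp from the start of Gm42567 and 20262 bp from that of Tet2.

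The Dnmt and Tet genes were then compared as families of 4 and 3 genes. Within 100 kb, 7 peaks lay near Dnmt genes (1.75 per gene) and 6 near Tet genes (2.00 per gene), a ratio of Tet to Dnmt of 1.14. The Tet share of these peaks was 46.2% (exact 95% interval 19.2 to 74.9%), and an equal number per gene would give 42.9%. All 6 Tet peaks were within 50 kb, where Dnmt genes had 2, both of Dnmt3b. The ratio there was 4.00, with a Tet share of 75.0% (34.9 to 96.8%). It depends on the limit, as at 55 kb the means were 1.00 per Dnmt gene and 2.00 per Tet gene. Within 200 kb the order turned, with 12 Dnmt peaks (3 per gene) and 8 Tet peaks (2.67 per gene), a ratio of 0.889. Each of these intervals includes the equal share. The difference in peak number between the families was thus within counting error at 50, 100 and 200 kb. Such intervals treat peaks as independent, although some lie in pairs, as in Tet1. With so few genes the precision was low, and at 100 kb the interval of the ratio ran from 0.317 to 3.97.

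The families differed more in placement, again within counting error. Inside gene bodies there were 4 peaks in Tet genes (1.33 per gene) and 1 in a Dnmt gene (0.250 per gene), a Tet share of 80.0% (28.4 to 99.5%). Tet bodies are longer, 282.6 kb in all against 221.1 kb, and per 100 kb of body the counts were 1.42 and 0.452. As the nearest gene, Tet genes had 5 peaks and Dnmt genes 3, a Tet share of 62.5% (24.5 to 91.5%). Per Mb of the stretch nearest to each family the order was the opposite, 8.25 peaks for Tet and 10.8 for Dnmt. Of the 606.3 kb of the Tet stretch, however, 463.2 kb was that of Tet2. By gene the values per Mb were 31.2 for Tet1, 12.7 for Tet3 and 4.32 for Tet2. Among the Dnmt genes they were 31.3 for Dnmt3b, 10.5 for Dnmt3a and 0 for Dnmt1 and Dnmt3l. Each Tet gene had a peak within its body and at least 1 peak nearest to it. Of the Dnmt genes, Dnmt3a alone had a peak within its body, and Dnmt3a and Dnmt3b alone had a nearest peak. With the nearest gene taken among all annotated genes, Dnmt genes had 1 peak and Tet genes 0.

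**Figure D4:**
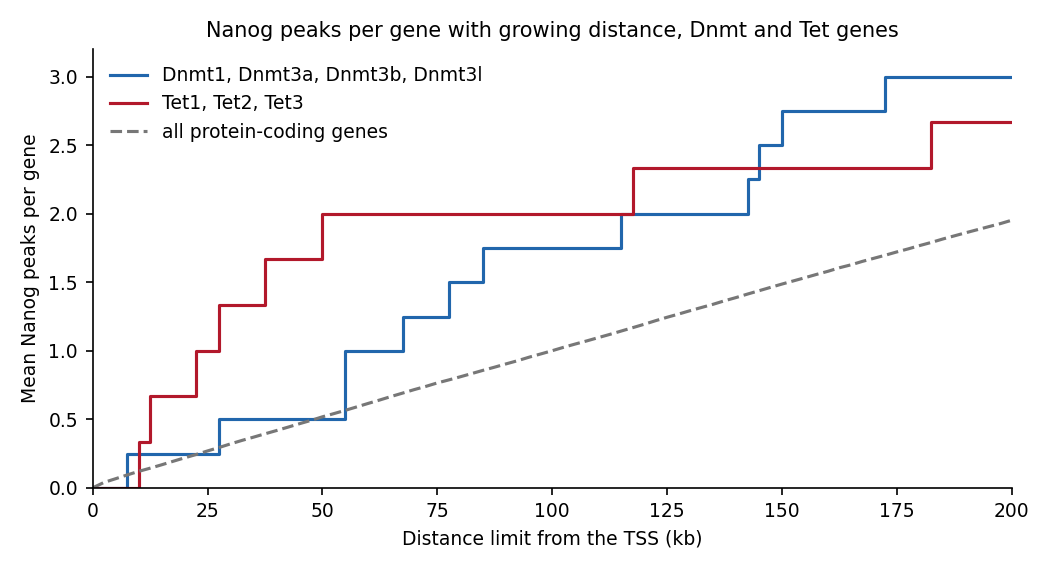
Mean number of Nanog peaks per gene (vertical axis) as the distance limit from the TSS grows to 200 kb (horizontal axis), for the 4 Dnmt genes, the 3 Tet genes and all protein-coding genes. The Tet line reaches 2.00 by 50 kb while the Dnmt line stands at 0.500, and the lines cross beyond 100 kb.

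The 15 peaks were also compared with the whole list in width, base composition and motifs. Their annotation was intron for 9, intergenic for 5 and coding exon for 1, and 5 of the 9 intronic peaks were centred inside the member itself. There were 8 upstream of the TSS and 7 downstream. Their median width was 370 bp, with a range of 235 to 872 bp, against 319 bp for all peaks, and 9 of the 15 reached that median. Median GC content was 48.5% against 47.7%, and the median ratio of observed to expected CpG was 0.219 against 0.179. Only the Kdm4b peak next to Uhrf1 reached a ratio of 0.847. A Sox copy was present in 4 of 15 (26.7%) and in 28.2% of all peaks, a Nanog core in 2 of 15 (13.3%) and 18.1%, an octamer in 1 and 5.72%, and Klf in 1 and 8.998%. Esrrb copies were found in 2 of 15, the intragenic peaks of Tet1 and Dnmt3a, or 13.3% (exact 95% interval 1.66 to 40.5%) against 3.53% of all peaks, which lies inside the interval. No composite was found in the 15, which allows a share of up to 21.8%, and 2.21% of all peaks had one. Any of the 6 motifs occurred in 8 of 15 and in 52.5% of all peaks. All 4 peaks with a Sox copy were among the 8 nearest to their member, 2 of them inside Tet1 and Tet2 and 2 upstream of Dnmt3a and Dnmt3b. These 4 peaks were 399 to 872 bp wide, all above the median of all peaks. The 7 peaks nearest to other genes ranged from 235 to 768 bp. Wider peaks give more room for a copy, and the split was not tested. In the central 200 bp of the peaks, 2 of 15 (13.3%) held a Sox copy. The share of all peaks in that window is not given here, and the 28.2% for whole peaks is not its counterpart.

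Other genes of the pathway were counted in 5 lists with 41 genes in all, of which 34 (82.9%, 67.9 to 92.8%) had a peak within 100 kb. All 11 partners of DNA methylation had one (lower limit 71.5%), against 54.8% of protein-coding genes, with a mean of 2.82 peaks per gene. Within 5 kb, where 6.25% of protein-coding genes had a peak, 4 of the 11 had one. These were Uhrf2, a relative of Uhrf1, at 1302 bp with 3 peaks within 100 kb, Zfp57, which protects methylation at imprinted loci, at 3585 bp with 5, Dppa3, which shields the maternal genome from demethylation in the zygote, at 1751 bp with 5, and Prdm14, a repressor of the de novo enzymes, at 1090 bp with 5. Prdm14 was the nearest gene of 5 peaks, and it also belongs to the list of naive pluripotency factors. Among genes of excision repair and deamination, which act after Tet oxidation or on deaminated bases, 10 of 11 had a peak within 100 kb. Parp1, a sensor of strand breaks, was the closest of these, with a peak 16 bp from its TSS, 2 within 5 kb and 3 within 100 kb. Apobec1, a cytidine deaminase, had 5 peaks, the closest at 6.14 kb, but it lies near Dppa3 and Nanog on chromosome 6, and these genes share peaks in their windows.

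Of the partners of the Tet enzymes 5 of 7 had a peak within 100 kb, with the most, 5 each, near Cxxc5, a CXXC-domain protein that binds unmethylated CpG (closest at 6.29 kb), and Idh2, a mitochondrial isocitrate dehydrogenase (closest at 15.2 kb), which was named after its values were seen. Methyl donor supply had 4 of 5 and the methyl-CpG readers, which bind methylated DNA, 4 of 7, neither with a peak within 5 kb. Readers were the nearest gene of no peak. The intervals for the readers, the Tet partners and methyl donor supply all include the background of 54.8%, while those for the partners of DNA methylation and for excision repair begin above it, the latter at 58.7%.

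For comparison, the same counts were made for Polycomb components and for naive pluripotency transcription factors. Of the Polycomb genes, 19 of 24 (79.2%, 57.8 to 92.9%) had a peak within 100 kb, against 54.8% of protein-coding genes. Their mean was 1.92 peaks. Of the naive pluripotency factors, 11 of 12 (91.7%, 61.5 to 99.8%) had a peak within 100 kb. Their mean was 4.08 peaks, with a median closest peak at 4.27 kb. The intervals of both sets begin above the 54.8%, as do those of the partners of DNA methylation and of excision repair. Within 5 kb of the TSS, 7 of those 12 genes had a peak, among them Pou5f1, Sox2 and Nanog itself. At this limit 3 of the 24 Polycomb genes and none of the 9 had a peak, against 6.25% of protein-coding genes. From the start of every protein-coding transcript, 2 of the 9 had one, and that count is not given for the 12. The identity of the cells as ESCs rests on their label, since no marker expression was measured. These are counts from 1 library, and no difference between the sets was tested.

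**Figure D5:**
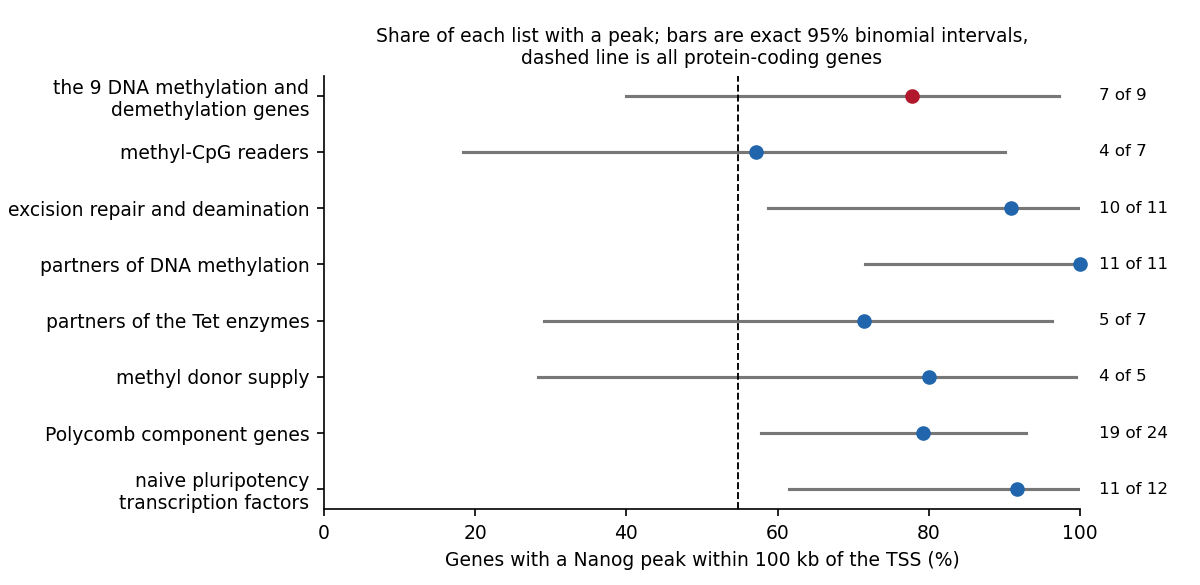
Percent of genes in each list with a Nanog peak within 100 kb of the TSS (points) with exact 95% Clopper-Pearson intervals (bars). The dashed line is the 54.8% of all protein-coding genes, and the counts stand at the right. The interval of the 9 genes, 40.0 to 97.2%, spans the line.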

How the data were processed

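Nanog ChIP-seq of 1 immunoprecipitated sample of Bruce-4 ESCs was used. The input sample was not used here. According to the methods and the submitters' processing notes, reads were inspected with FastQC, aligned to mm10 with Bowtie2 and cleared of low-quality, duplicate, mitochondrial and blacklisted reads with BEDtools and SAMtools, and MACS2 called peaks. The threshold of the call, and whether the input was its control, are not given in the sources used here. The authors deposited chromosome, start and end of each peak, with no score or summit, so a stricter threshold could not be tried and the reads behind each peak cannot be read from it.

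The list held 8860 lines and 8737 distinct intervals, 8735 of which lay on chromosomes 1 to 19 or X, and each interval was counted once. Genes, transcripts and biotypes came from GENCODE vM21 and bases from GRCm38, the assembly of mm10. The nearest gene was the protein-coding gene whose TSS was closest, up to 1000 kb. Annotation was read at the middle base of the peak. Positions are 1-based. Intervals are exact Clopper-Pearson intervals at 95% and cover counting error only. No p-value was computed, since 1 library has no replicate and peaks and genes are not replicates.

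The genes, the related lists and the comparisons were chosen with earlier results of these data known. All 9 genes were named, with the genes nearest to their peaks and, from the related lists, genes with a peak within 5 kb and the 5 with the most peaks within 100 kb (ties to the smaller distance, which left out Idh2 with the same count). Alternatives were other distance limits, the start of every transcript, distance from the peak edge, the gene body with 10 kb on each side, nearest among all annotated genes, all lines of the list, peaks merged within 300 bp, peaks at or above the median width and, for motifs, the central 200 bp. Some items of the lists and sequences are not reported here. Counting was checked on simulated positions. Python 3.11.15, pandas 2.3.3, SciPy 1.17.1 and pysam 0.24.0 were used.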

Additional observations from a re-analysis of the deposited data

How the results depend on the processing

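Of 52 alternative values, 40 stayed within the tolerance, which was 1.5 times for counts and the exact 95% interval of the reported value for ratios and motif shares. That interval is wide: it took in a Tet to Dnmt ratio of 2.67 at 20 kb and with the gene body and 10 kb on each side, against 1.14, and a Sox share of 13.3% in the central 200 bp, against 26.7%. With a limit of 20 kb, peaks near the 9 genes went from 15 to 4, genes with a peak from 7 to 3 and related genes with a peak from 34 to 18. With 200 kb the peaks rose to 25. With the gene body and 10 kb on each side there were 7 peaks, and 14 related genes had one. The ratio of Tet to Dnmt peaks per gene went from 1.14 to 4 at 50 kb. Nearest among all annotated genes left 1 of 8 nearest peaks, 1 of 5 genes (Dnmt3b) and a ratio of 0 in place of 2.22. Peaks at or above the median width numbered 9 of the 15. With the start of every protein-coding transcript, an alternative chosen after seeing the data, 2 genes in place of 0 had a peak within 5 kb. These alternatives count fewer, more or other peaks and starts by construction. The list gives no read count or score, which limits every count here to peaks that passed the authors' call in 1 library. No paired analysis was possible because there is 1 immunoprecipitated sample and no result comes from a test between samples.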
